A study of Mus musculus with 6 samples.

Results

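Transcripts of the machinery that moves proteins into the endoplasmic reticulum (ER) and carries them between the ER and the Golgi were compared between mouse libraries labelled VprBP shRNA and control shRNA. The 62 genes described here were chosen by their symbols among the protein-coding genes of the table, and they are 62 of 18908 gene IDs, of which 14222 were protein coding. The symbols cover subunits of the signal recognition particle (SRP) and its receptor, Sec61, Sec62 and Sec63, TRAP (the Ssr genes), signal peptidase and oligosaccharyltransferase. They also cover the COPII and COPI coats, the Sec22 family and the Tmed genes, counted by symbol as p24 cargo receptors.

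RNA of 6 libraries was sequenced. Of these, 3 carried the genotype label VprBP1 Knockdown and an shRNA against VprBP, and 3 carried the genotype label WT and a control shRNA. VprBP is the alias of Dcaf1, which brings substrates to a CUL4 ubiquitin ligase, and shRNAs are hairpin RNAs used to deplete a chosen transcript. All 6 were labelled as the cell line BMDM, bone marrow-derived macrophages, and the labels give no further treatment, animal age or origin of the replicates, so each p-value below reflects variation among these libraries, which could be of technical origin only.

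Most secreted and membrane proteins are recognised by SRP as they leave the ribosome, docked at the SRP receptor and threaded through the Sec61 channel, where TRAP assists, signal peptidase removes the signal sequence and oligosaccharyltransferase adds N-linked glycans. Folded cargo leaves the ER in vesicles coated by COPII, and COPI coats the vesicles that return receptors and escaped ER residents from the Golgi. Many of these genes are known targets of the unfolded protein response, the programme by which cells enlarge the ER when unfolded proteins accumulate.

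The total deposited count ranged between 17825340 and 18407356 in VprBP-labelled libraries and between 16839445 and 21838875 in control-labelled libraries. Dcaf1, the gene targeted by the shRNA, was measured at 36.0, 34.6 and 36.8 CPM (counts after scaling all libraries to one size) in VprBP-labelled libraries, against 42.2, 43.5 and 40.7 CPM in control-labelled libraries. The groups did not overlap, but the log2 difference was only -0.24 ± 0.07 (SE; edgeR quasi-likelihood F test with Benjamini-Hochberg adjustment, adjusted p = 0.00625), 81% of tested genes changed more, and the adjusted p was 0.137 when libraries were scaled by total count alone. Of 12 macrophage markers, 4 had a row (Cd68, Cd14, Lyz2 and Mertk), with a summed level between 16.5 and 18.2 CPM in VprBP-labelled libraries and between 37.1 and 40.2 CPM in control-labelled libraries. This sum was led by Cd68, at 1.01 ± 0.270 CPM in VprBP-labelled and 31.6 ± 1.20 CPM in control-labelled libraries (SD, n = 3 each), while Mertk and Lyz2 rose by 1.32 and 1.25 on the log2 scale and Cd14 was not called. The other 8 markers, among them the defining genes Csf1r, Adgre1, Spi1 and Ptprc, had no row among the gene IDs used here. All 8 pigment cell markers examined were detected, with a summed level between 19654 and 20163 CPM in VprBP-labelled libraries and between 21075 and 21454 CPM in control-labelled libraries, so the markers go against the macrophage label. Within that sum the markers moved both ways: Tyr, Sox10, Mitf, Dct and Tyrp1 rose by 1.92, 1.81, 1.78, 0.59 and 0.08, and Slc45a2, Pmel and Mlana fell by 1.93, 1.48 and 1.42. Mitochondrially encoded genes took between 4.89% and 5.56% of the counts in VprBP-labelled libraries and between 8.65% and 9.48% in control-labelled libraries. The part of these marker levels and mitochondrial shares in the results below was not tested, and all directions given are between the labels.

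All 62 genes passed the filter on low counts, with mean levels between 12.2 and 1708 CPM over the 6 libraries. Transcripts of this machinery were lower in the VprBP-labelled libraries in nearly all of the entry pathway and in most of the transport coats. Of the 62 genes, 52 (83.9%) fell, 6 (9.68%) rose and 4 were not called at an adjusted p below 0.05. Across all 14641 genes tested, 75.0% were called in either direction, 37.0% were called lower and 37.9% were called higher, so a call by itself was common in this comparison. Of the 62 genes, 23 fell by at least 1 on the log2 scale, while 14.2% of all tested genes fell that far. The groups did not overlap for 60 of the 62 genes, beside 77.2% of all tested genes. The median log2 difference was -0.76 over the 62 genes, with a range between -2.24 and 0.87, and -0.01 over all tested genes. In RNA from whole cultures, fewer cells of a type and less RNA per cell cannot be told apart.

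The summed level of the 62 genes was 11259, 11349 and 11306 CPM in VprBP-labelled libraries 1, 2 and 3, against 22108, 22025 and 22053 CPM in control-labelled libraries 1, 2 and 3. The sum in VprBP-labelled libraries was thus 51.2% of that in control-labelled libraries, and replicates of a group differed by far less than the groups did. The 29 genes of targeting, translocation, cleavage and glycosylation summed to 6825 ± 74.9 CPM in VprBP-labelled libraries and 15211 ± 75.7 CPM in control-labelled libraries (SD, n = 3 each). Of these 29, 28 fell, 16 of them by at least 1 on the log2 scale, none rose, and their median log2 difference was -1.18. The 33 genes of coats, cargo receptors and SNAREs summed to 4480 ± 50.2 CPM in VprBP-labelled libraries and 6851 ± 37.1 CPM in control-labelled libraries (SD, n = 3 each). Of these 33, 24 fell, 7 of them by at least 1 on the log2 scale, 6 rose, and the median was -0.60. The difference between the 2 sets was not tested.

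**Figure D1:**
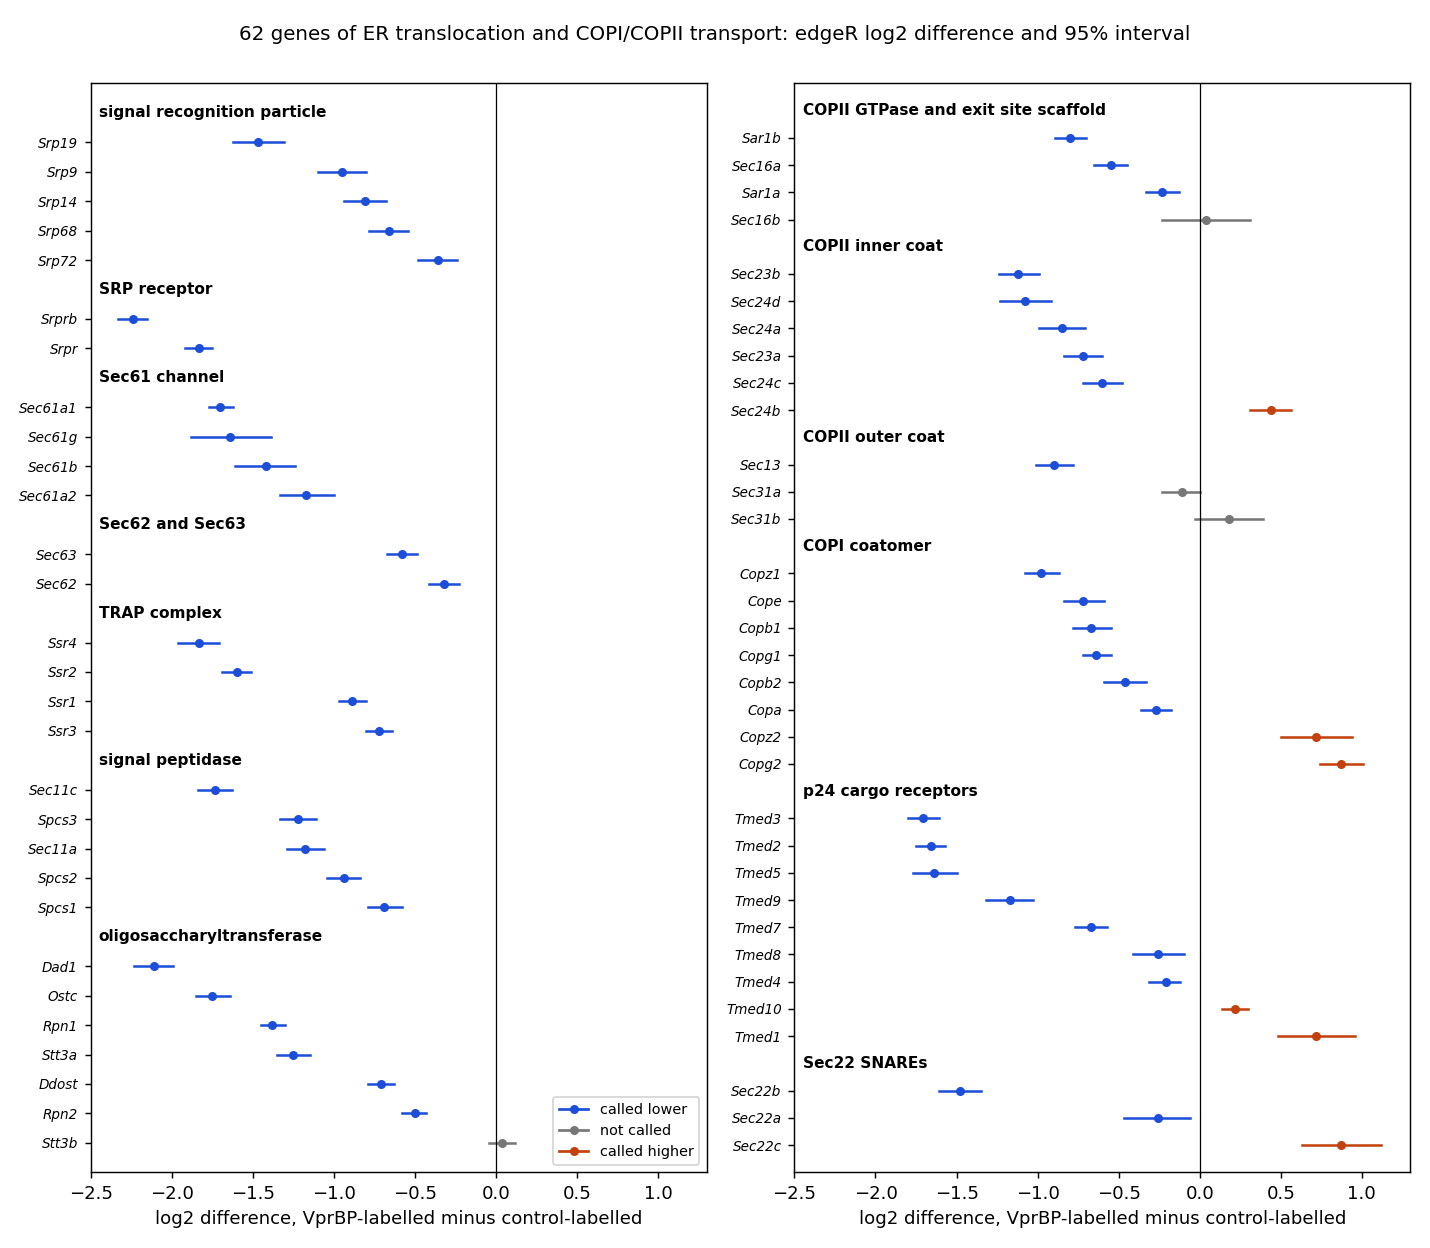
Log2 difference in level, VprBP-labelled minus control-labelled, for each of the 62 genes, grouped by role; points are edgeR estimates from 3 libraries per label, bars are 95% confidence intervals, and colours mark genes called lower, higher or not called. The 28 called genes of the entry pathway all lie below 0, whereas the 6 genes above 0 that were called belong to the coats, the p24 family and the Sec22 family.

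**Figure D2:**
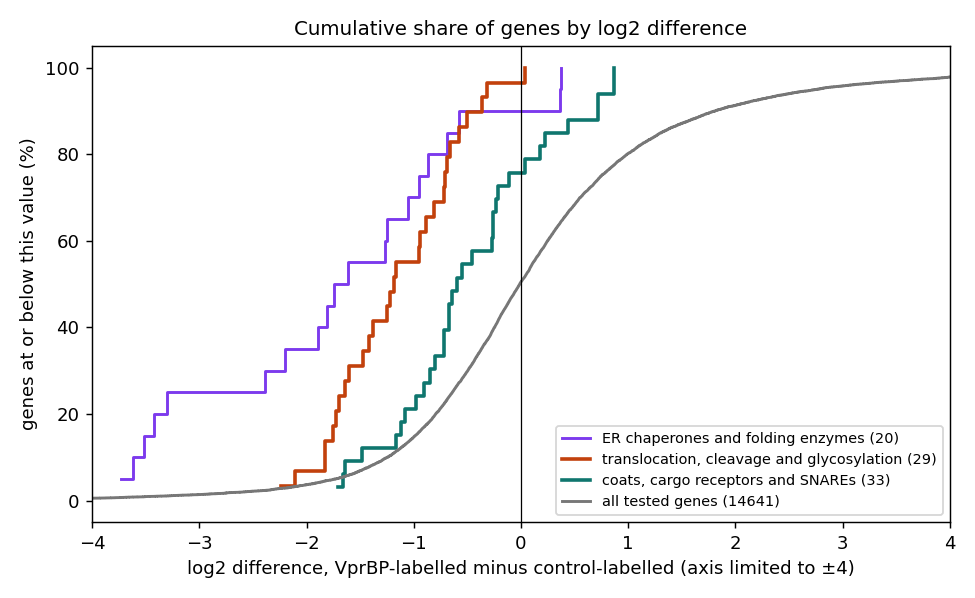
Cumulative share of genes (vertical axis, percent) at or below each log2 difference, VprBP-labelled minus control-labelled (horizontal axis), for the 29 entry genes, the 33 transport genes, 20 ER chaperones and folding enzymes and all 14641 tested genes. The medians are -1.67 for the chaperones, -1.18 for the entry genes, -0.60 for the transport genes and -0.01 for all tested genes.

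Promoters were searched because many of these genes moved together and are known targets of the unfolded protein response. RefSeq start sites on GRCm38.p6 gave a window of 250 bases before to 50 bases after the start for 53 of the 62 genes. These were 58 windows, since 5 genes had more than 1 start. All of the genes without a window were called lower. Their log2 differences were -1.75 for Ostc, -1.73 for Sec11c, -1.70 for Sec61a1, -1.66 for Tmed2 and -1.60 for Ssr2. Those of Srp19, Spcs3, Tmed7 and Srp68 were -1.47, -1.22, -0.67 and -0.66. The shares below thus leave out several of the genes that fell most. Windows were searched on both strands for TGACGTGG, the core of the element bound by XBP1 (UPRE), for CCACG, the short element that ATF6 and XBP1 share, and for the full ER stress elements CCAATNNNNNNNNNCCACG (ERSE) and ATTGGNCCACG (ERSE-II). The UPRE core holds this short element on its other strand, so each UPRE match is also a CCACG match. The UPRE core was present in a window of 5 of the 53 genes (9.4%), compared with 1.05% of 10446 tested genes with a window and 0.71% of 27025 genes in the whole table. CCACG was present for 38 of the 53 genes (71.7%), compared with 52.07% of tested genes and 35.48% of the whole table. The genes called higher, Copg2, Copz2, Sec24b, Tmed1, Tmed10 and Sec22c, all held it, so CCACG was not confined to genes that fell. Among genes that fell, some held it, such as Srprb and Dad1, and some did not, such as Ssr4 and Sec61g. ERSE was present for 0 of the 53 genes and for 0.18% of tested genes, and ERSE-II for 0 of the 53 and for 0.09% of tested genes (0.14% and 0.04% of the whole table). A match describes letters in the window and is neither a binding site nor a cause of a difference.

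The stretches around the starts of the 5 genes with a UPRE core are shown because all 5 encode coat or exit site components, and that of Srprb because it fell most. Each runs 5′ to 3′ on the gene's strand, in the GRCm38.p6 coordinates given after it, and capitals mark the UPRE core on either strand or, in Srprb, CCACG and its complement CGTGG.
Sec24d: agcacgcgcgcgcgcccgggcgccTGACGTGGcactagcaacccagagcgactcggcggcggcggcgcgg
Sec23a: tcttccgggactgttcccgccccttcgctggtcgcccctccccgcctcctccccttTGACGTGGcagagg
Sec16b: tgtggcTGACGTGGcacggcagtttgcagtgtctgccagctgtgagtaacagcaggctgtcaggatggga
Copb1: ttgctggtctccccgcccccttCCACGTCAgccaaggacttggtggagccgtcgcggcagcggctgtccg
Copb2: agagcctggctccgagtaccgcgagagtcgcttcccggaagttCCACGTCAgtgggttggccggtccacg
Srprb: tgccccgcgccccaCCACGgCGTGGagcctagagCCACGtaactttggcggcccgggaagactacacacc
These are chr3:123267446-123267515 (plus strand) for Sec24d, chr12:59011998-59012067 (minus) for Sec23a, chr1:157506746-157506815 (plus) for Sec16b, chr7:114254661-114254730 (minus) for Copb1, chr9:98563681-98563750 (plus) for Copb2 and chr9:103202066-103202135 (minus) for Srprb. The first 5 span bases -50 to 20 around the start, and that of Srprb spans bases -70 to -1. Of the 5 genes with the UPRE core, Sec24d, Sec23a, Copb1 and Copb2 fell, by 1.08, 0.72, 0.67 and 0.46 on the log2 scale. Sec16b was not called, with a log2 difference of 0.04. Of all 62 genes, 83.9% fell, with a median log2 difference of -0.76, so a fall was not particular to genes with the UPRE core.

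Both subunits of the SRP receptor fell, and Srprb fell most of the 62 genes. Srprb, the membrane subunit that anchors the receptor (chr9:103188032-103202137, minus strand), had 159.8, 156 and 149 CPM in VprBP-labelled libraries, against 736, 729 and 734 CPM in control-labelled libraries. Srpr, the subunit that meets SRP (chr9:35200175-35247973, plus strand), had 206, 204 and 209 CPM in VprBP-labelled libraries, against 741, 723 and 739.7 CPM in control-labelled libraries. Every VprBP-labelled library lay far below every control-labelled one for both subunits, 4.72-fold lower for Srprb (log2 difference -2.24 ± 0.04, edgeR adjusted p = 4.44e-18) and 3.56-fold lower for Srpr (-1.83 ± 0.04, adjusted p = 2.98e-17; SE, n = 3 each). Together they summed to 361 ± 4.01 CPM in VprBP-labelled libraries and 1467 ± 14.0 CPM in control-labelled libraries, or 24.6% of the level in control-labelled libraries.

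Of SRP itself, the 5 protein subunits among the 62 genes were all called lower (adjusted p at most 1.89e-05), with a median log2 difference of -0.81. Srp19, which helps assemble the particle's RNA with its signal-binding subunit, had 18.6, 18.6 and 19.6 CPM in VprBP-labelled libraries, against 52.9, 52.2 and 51.9 CPM in control-labelled libraries. Srp9, part of the domain that slows the ribosome, had 39.8, 36.9 and 42.2 CPM in VprBP-labelled libraries, against 80.6, 71.4 and 77.4 CPM in control-labelled libraries. Srp72, which pairs with Srp68 and was the most abundant of the 5 by count, had 115, 118 and 111 CPM in VprBP-labelled libraries, against 155, 153 and 134 CPM in control-labelled libraries. Subunits of the particle thus fell unequally, by 1.47 on the log2 scale for Srp19 (95% interval -1.62 to -1.31), 0.95 for Srp9 and 0.36 for Srp72 (-0.48 to -0.24), and the groups of these 5 subunits did not overlap. Srp14, the partner of Srp9, and Srp68 fell by 0.81 and 0.66. The signal-binding subunit is encoded by the near-identical copies Srp54a, Srp54b and Srp54c, which lie outside the symbol rule and fell by 0.30, 0.98 and 0.79 (adjusted p at most 0.00131), with uncertain values for each copy.

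All 4 genes of the Sec61 channel fell, and their sum was 31.3% of that in control-labelled libraries. Sec61a1, the pore-forming subunit (chr6:88503579-88518905, minus strand), had 819, 817 and 782 CPM in VprBP-labelled libraries, against 2615, 2575 and 2639 CPM in control-labelled libraries. The groups were separated by a fold of 3.24 (log2 difference -1.70 ± 0.04, edgeR adjusted p = 2.39e-17; SE, n = 3 each). Sec61g, a small subunit that clasps the pore, had 11.5, 9.67 and 8.24 CPM in VprBP-labelled libraries, against 29.6, 31.1 and 30.8 CPM in control-labelled libraries. Sec61b, the other small subunit, fell by 1.42 and the paralog Sec61a2 by 1.17. Counts of Sec61g and Sec61b lay up to 0.436 and 0.462 from a whole number, as arises when reads are divided among genes. Of the exon bases of Sec61a2, 19.9% overlap exons of Nudt5 on the other strand, so these 3 values are uncertain. Counts of Sec61a1 lay up to 0.3 from a whole number, and 8.2% of its exon bases overlap Gm44170 on the other strand. The part of shared reads in the Sec61a1 value was not tested.

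Sec63, a membrane J-domain protein that recruits the chaperone Hspa5 to the channel, and its partner Sec62 fell less than the pore. Sec63 had 231, 249 and 242 CPM in VprBP-labelled libraries, against 369.8, 360.4 and 348 CPM in control-labelled libraries. Sec62 had 264, 272 and 281 CPM in VprBP-labelled libraries, against 337, 345 and 337 CPM in control-labelled libraries. The groups did not overlap, and the log2 differences were -0.58 (95% interval -0.67 to -0.49, adjusted p = 1.55e-09) for Sec63 and -0.32 (-0.41 to -0.23, adjusted p = 2.17e-06) for Sec62, neither reaching the interval of Sec61a1 (-1.77 to -1.62).

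TRAP, the complex of 4 subunits beside Sec61, fell in all 4, and unequally. Ssr4 (chrX:73787028-73790830, plus strand) had 105, 92.7 and 92.7 CPM in VprBP-labelled libraries, against 331, 337 and 369.6 CPM in control-labelled libraries. Ssr2 had 237, 251 and 239 CPM in VprBP-labelled libraries, against 735, 708 and 754 CPM in control-labelled libraries. Ssr3, the most abundant by count, had 794, 826 and 830.4 CPM in VprBP-labelled libraries, against 1377, 1331 and 1320.4 CPM in control-labelled libraries. None of these groups overlapped, and the log2 differences were -1.83 for Ssr4 and -1.60 for Ssr2 but -0.89 for Ssr1 and -0.72 for Ssr3, with 95% intervals of -1.69 to -1.51 for Ssr2 and -0.97 to -0.80 for Ssr1 (adjusted p at most 5.41e-12 for the 4). Subunits of a single complex therefore differed in their fall by more than their intervals.

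Signal peptidase fell in all 5 subunits, with a median log2 difference of -1.18 and a sum of 45.5% of that in control-labelled libraries. Sec11c, one of a pair of alternative catalytic subunits, had 78.1, 75.0 and 80.5 CPM in VprBP-labelled libraries, against 265, 261 and 251 CPM in control-labelled libraries. Spcs3, an accessory subunit the complex needs, had 105, 119.7 and 114 CPM in VprBP-labelled libraries, against 272, 262 and 255 CPM in control-labelled libraries. Spcs2, the most abundant by count, had 178, 185 and 200.1 CPM in VprBP-labelled libraries, against 364, 358 and 357 CPM in control-labelled libraries. The groups were apart for each, with log2 differences of -1.73, -1.22 and -0.94 for Sec11c, Spcs3 and Spcs2 (edgeR adjusted p at most 5.86e-10 for the 5 subunits). Sec11a, the other catalytic subunit, fell by 1.18. Sec11c thus made up 52.6%, 50.6% and 53.1% of the Sec11a and Sec11c counts in VprBP-labelled libraries. In control-labelled libraries it made up 63.4%, 61.2% and 60.0%. Per kilobase of merged exons, means for Sec11c and Sec11a were 11.4 and 15.5 CPM per kb in VprBP-labelled libraries. In control-labelled libraries they were 38.1 and 35.1 CPM per kb. A pseudogene, Spcs2-ps, was listed separately at low counts, and 16.3% of the exon bases of Spcs1, which fell by 0.69, overlap Glt8d1 on the other strand.

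**Figure D3:**
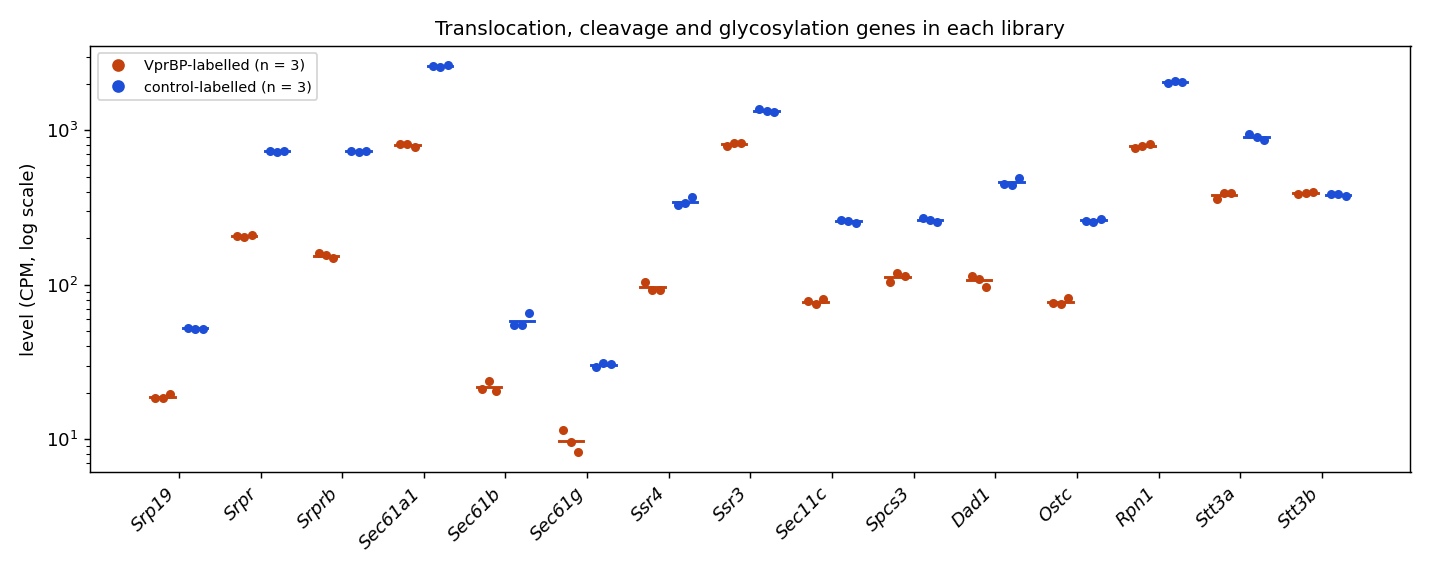
Level in CPM (log axis) of named targeting, translocation, cleavage and glycosylation genes in each library, VprBP-labelled left of control-labelled within each gene; points are the 3 libraries per label and lines their means. Srprb lies between 149 and 159.8 CPM in VprBP-labelled and between 729 and 736 CPM in control-labelled libraries, while Stt3b is at about the same level under both labels.

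Oligosaccharyltransferase, which transfers the N-glycan, fell in 6 of 7 subunits, and the exception was a catalytic subunit. Dad1, a small subunit shared by both forms of the enzyme, had 114, 109 and 97.4 CPM in VprBP-labelled libraries, against 450.0, 446 and 489 CPM in control-labelled libraries. Ostc, which belongs to the form docked at the channel, had 76.6, 75.3 and 82.0 CPM in VprBP-labelled libraries, against 261, 256 and 267 CPM in control-labelled libraries. Rpn1, the most abundant subunit by count, had 770.1, 789 and 815 CPM in VprBP-labelled libraries, against 2029, 2082 and 2051 CPM in control-labelled libraries. These 3 were 4.33-, 3.35- and 2.59-fold lower, with no overlap between groups and edgeR adjusted p values of 5.38e-16, 1.17e-15 and 4.60e-16. Ddost and Rpn2, also shared by both forms, fell by 0.71 and 0.50.

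The catalytic subunits differed. Stt3a, the subunit of the form that acts during translocation (chr9:36729344-36767679, minus strand), had 360.2, 393 and 393 CPM in VprBP-labelled libraries, against 949, 911 and 869.8 CPM in control-labelled libraries. Stt3b, the subunit of the form that can act later on skipped sites (chr9:115242581-115310421, minus strand), had 390.0, 392 and 402 CPM in VprBP-labelled libraries, against 390.2, 387 and 375 CPM in control-labelled libraries. Stt3a fell by 1.25 on the log2 scale (95% interval -1.35 to -1.15, adjusted p = 3.60e-14), while the Stt3b groups overlapped and its log2 difference was 0.04 (-0.04 to 0.12, adjusted p = 0.373). Scaled by total count alone, Stt3b was called higher at 0.16 (adjusted p = 0.00191). Stt3b made up 52.0%, 49.9% and 50.6% of the Stt3a and Stt3b counts in VprBP-labelled libraries, against 29.1%, 29.8% and 30.1% in control-labelled libraries. These shares do not allow for transcript length. Per kilobase of merged exons, means for Stt3b and Stt3a were 93.5 and 42.7 CPM per kb in VprBP-labelled libraries. In control-labelled libraries they were 90.9 and 102 CPM per kb. Among subunits that the symbol rule did not take, Magt1 and Tusc3 are the alternative oxidoreductases of the Stt3b form. Magt1 had 317, 344 and 319.5 CPM in VprBP-labelled libraries, against 873, 854 and 822 CPM in control-labelled libraries (log2 difference -1.38, adjusted p = 4.54e-15). Tusc3 had 104, 98.5 and 109 CPM in VprBP-labelled libraries, against 60.0, 56.1 and 58.5 CPM in control-labelled libraries (0.83, adjusted p = 4.18e-10), so this pair moved in opposite directions with no overlap between groups.

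Per kilobase of merged exons, the order of the most abundant entry transcripts differed between the labels. In VprBP-labelled libraries Ddost led with a mean of 219 CPM per kb, followed by Ssr3 at 196 and Rpn1 at 175 CPM per kb, and Sec61a1 stood at 119.7 CPM per kb. In control-labelled libraries Rpn1 led with 455 CPM per kb, followed by Ssr2 at 393, Sec61a1 at 388, Ddost at 359 and Ssr3 at 322 CPM per kb. Merged exons count every annotated isoform, so a gene with a rarely used long exon is placed too low on this scale.

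At the COPII coat, which buds vesicles from the ER, 9 of 13 genes fell, 1 rose and 3 were not called. Sar1b, a GTPase that starts coat assembly, had 139, 134 and 137 CPM in VprBP-labelled libraries, against 234, 241 and 238 CPM in control-labelled libraries. Its paralog Sar1a had 157, 162 and 161 CPM in VprBP-labelled libraries, against 183, 185 and 196 CPM in control-labelled libraries. Both fell, Sar1b by 0.80 (95% interval -0.89 to -0.70) and Sar1a by 0.23 (-0.33 to -0.13, edgeR adjusted p = 2.48e-04). By count, Sar1b was thus the lower of the pair in every VprBP-labelled library and the higher in every control-labelled one. Per kilobase of merged exons, however, Sar1b was above Sar1a under both labels. Means for Sar1b and Sar1a were 109 and 42.8 CPM per kb in VprBP-labelled libraries, and 189 and 50.3 CPM per kb in control-labelled libraries.

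Sec16a, the scaffold of ER exit sites, had 103, 105 and 107 CPM in VprBP-labelled libraries, against 152, 158 and 151 CPM in control-labelled libraries, and fell by 0.55 on the log2 scale. Sec16b, the shorter scaffold paralog, had 12.6, 11.4 and 12.9 CPM in VprBP-labelled libraries, against 11.1, 11.6 and 13.4 CPM in control-labelled libraries. The Sec16b groups overlapped, its log2 difference was 0.04 (adjusted p = 0.801), and its sign turned to -0.03 without control-labelled library 1.

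In the inner coat, which binds cargo, Sec23b and Sec24d fell most. Sec23b, a GTPase-activating subunit for Sar1, had 48.3, 50.8 and 46.9 CPM in VprBP-labelled libraries, against 109, 101 and 106 CPM in control-labelled libraries. Sec24d, a cargo adaptor (chr3:123267455-123365641, plus strand), had 48.8, 42.1 and 38.1 CPM in VprBP-labelled libraries, against 90.9, 92.1 and 88.7 CPM in control-labelled libraries. Sec24c, the most abundant of the inner coat genes by count, had 88.5, 91.8 and 82.7 CPM in VprBP-labelled libraries, against 136, 136 and 127 CPM in control-labelled libraries. Groups were apart for all 3, with log2 differences of -1.12, -1.08 and -0.60, and Sec23a fell by 0.72 (adjusted p at most 1.81e-08 for these 4).

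The closely related adaptors Sec24a and Sec24b moved in opposite directions. Sec24a (chr11:51692264-51763634, minus strand) had 51.9, 50.4 and 51.1 CPM in VprBP-labelled libraries, against 101, 88.8 and 86.9 CPM in control-labelled libraries. Sec24b (chr3:129982759-130061553, minus strand) had 72.2, 70.2 and 72.5 CPM in VprBP-labelled libraries, against 54.0, 53.6 and 51.2 CPM in control-labelled libraries. Neither gene's groups overlapped, and the log2 differences were -0.85 ± 0.07 (adjusted p = 1.37e-09) for Sec24a and 0.44 ± 0.06 (adjusted p = 2.88e-06) for Sec24b (SE, n = 3 each). Counts of both lay within 0.01 of whole numbers in every library.

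In the outer cage, Sec13, which also serves at the nuclear pore, had 117, 126 and 109 CPM in VprBP-labelled libraries, against 222, 209 and 225 CPM in control-labelled libraries, and fell by 0.90 (adjusted p = 6.34e-11). Sec31a, the main partner of Sec13 in the cage, had 90.6, 101 and 99.3 CPM in VprBP-labelled libraries, against 103, 106 and 106 CPM in control-labelled libraries. Sec31b had 21.1, 19.2 and 22.8 CPM in VprBP-labelled libraries, against 18.3, 18.8 and 18.6 CPM in control-labelled libraries. The groups of Sec31a and Sec31b did not overlap, but neither was called, with log2 differences of -0.11 (adjusted p = 0.0696) and 0.18 (adjusted p = 0.115). Both calls depend on the processing. By total count alone Sec31a was at 0.00 (adjusted p = 0.984) and Sec31b was called higher at 0.29 (adjusted p = 0.0134), and with upper quartile factors Sec31a was called lower at -0.14 (adjusted p = 0.0322), as it was under a filter on the mean level (1 CPM or more), at -0.12 (adjusted p = 0.0483). Sec31b was also called higher without VprBP-labelled library 2, at 0.25 (adjusted p = 0.0473).

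The COPI coat, or coatomer, fell in 6 of 8 genes, none by 1 or more on the log2 scale, and rose in the other 2, which are the alternative copies of 2 subunits. Copg1, the gamma subunit (chr6:87887814-87913595, plus strand), had 369, 359.6 and 355 CPM in VprBP-labelled libraries, against 546, 569.6 and 569.8 CPM in control-labelled libraries. Copg2, its paralog (chr6:30747554-30896794, minus strand), had 126, 139 and 136 CPM in VprBP-labelled libraries, against 78.0, 75.7 and 65.7 CPM in control-labelled libraries. Copg1 fell by 0.64 ± 0.04 (adjusted p = 7.96e-11) and Copg2 was 1.83-fold higher (0.87 ± 0.06, adjusted p = 8.47e-10; SE, n = 3 each), with no overlap between groups for either. Counts of Copg2 lay up to 0.49 from a whole number and those of Copg1 up to 0.3, as arises when reads are divided among genes. Exons of Mest cover 17.8% of the exon bases of Copg2 on the other strand, so the Copg2 value is uncertain. Mest was measured at 26.0 ± 1.83 CPM in VprBP-labelled libraries and 22.5 ± 1.57 CPM in control-labelled libraries (SD, n = 3 each), and the part of its reads in the Copg2 value was not tested.

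Copz1, the zeta subunit (chr15:103272714-103299868, plus strand), had 81.8, 81.2 and 85.6 CPM in VprBP-labelled libraries, against 167, 165 and 157 CPM in control-labelled libraries. Copz2, its paralog (chr11:96849870-96861203, plus strand), had 28.6, 23.4 and 29.7 CPM in VprBP-labelled libraries, against 16.0, 17.2 and 16.4 CPM in control-labelled libraries. Copz1 fell by 0.98 ± 0.05 (adjusted p = 5.53e-12) and Copz2 was 1.65-fold higher (0.72 ± 0.11, adjusted p = 6.49e-06; SE, n = 3 each), again with no overlap. The alternative copy thus made up 24.7% of the Copz1 and Copz2 counts in VprBP-labelled libraries and 9.2% in control-labelled libraries, and for the gamma pair 27.0% in VprBP-labelled libraries and 11.5% in control-labelled libraries. The other subunits among the 62 genes, Cope, Copb1, Copb2 and Copa, fell by 0.72, 0.67, 0.46 and 0.27. Arcn1, the delta subunit outside the symbol rule, had 121, 123 and 123 CPM in VprBP-labelled libraries, against 155, 152 and 145 CPM in control-labelled libraries, and fell by 0.30 (adjusted p = 1.90e-05).

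**Figure D4:**
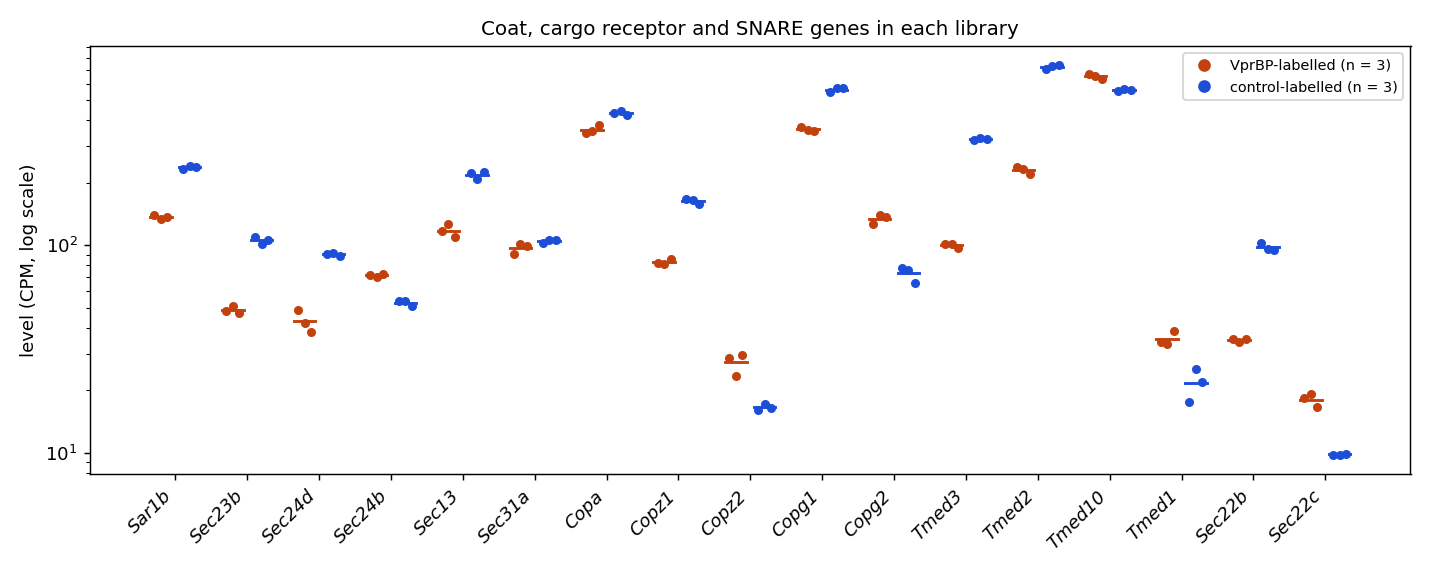
Level in CPM (log axis) of named COPII, COPI, p24 and Sec22 genes in each library, VprBP-labelled left of control-labelled within each gene; points are the 3 libraries per label and lines their means. Copg2, Copz2, Sec24b and Sec22c lie higher in every VprBP-labelled library, while Copg1, Copz1, Sec24d and Sec22b lie lower.

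The p24 cargo receptors are membrane proteins that cycle between ER and Golgi as hetero-oligomers and help load GPI-anchored proteins. Of the 9 Tmed genes, counted with this family by symbol, 7 fell. Tmed3 (chr9:89699206-89705068, minus strand) had 101, 101 and 96.9 CPM in VprBP-labelled libraries, against 322, 327 and 326 CPM in control-labelled libraries. Tmed2, the beta-type member, had 237, 233 and 219.5 CPM in VprBP-labelled libraries, against 709, 732 and 734 CPM in control-labelled libraries. Tmed10, the delta-type member with which Tmed2 associates, had 665, 656 and 634 CPM in VprBP-labelled libraries, against 552, 564 and 559 CPM in control-labelled libraries. Partners within the family thus moved apart, with no overlap between groups: Tmed3 was 3.26-fold lower (edgeR adjusted p = 3.70e-16), Tmed2 was 3.15-fold lower (adjusted p = 3.02e-16) and Tmed10 was 1.17-fold higher (adjusted p = 4.30e-05). A pseudogene, Tmed10-ps, was listed with between 1055.41 and 1196.53 counts in VprBP-labelled libraries and between 837.724 and 1053.4 in control-labelled libraries, and how reads were divided between it and Tmed10 is not known, so the Tmed10 value is uncertain.

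Tmed3, Tmed5, Tmed7 and Tmed1 are the gamma-type members. Tmed5 fell by 1.64, with an interval that overlaps that of Tmed3. Tmed7 had 342, 349 and 313 CPM in VprBP-labelled libraries, against 539, 548 and 510.4 CPM in control-labelled libraries, and fell by 0.67 (95% interval -0.77 to -0.57) with no overlap. Tmed1 was higher, at 34.2, 33.5 and 38.4 CPM in VprBP-labelled libraries, against 17.5, 25.3 and 22.0 CPM in control-labelled libraries (log2 difference 0.72, adjusted p = 1.41e-05). Its exons overlap those of Dnm2 on the other strand over 13.6% of their bases, Dnm2 was itself 134 ± 4.59 CPM in VprBP-labelled libraries and 115 ± 7.46 CPM in control-labelled libraries (SD, n = 3 each), and the part of Dnm2 reads in the Tmed1 value was not tested. Of the alpha-type members, Tmed9 fell by 1.17 and Tmed4 by 0.21. Tmed8, counted here by its symbol and placed in none of these types, fell by 0.26. The calls of Tmed4 and Tmed8 were lost when libraries were scaled by total count alone, at -0.10 (adjusted p = 0.0575) and -0.14 (adjusted p = 0.0936).

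In the Sec22 family, Sec22b, the SNARE that fuses vesicles between ER and Golgi (chr3:97901190-97923276, plus strand), had 35.4, 34.2 and 35.3 CPM in VprBP-labelled libraries, against 102, 95.5 and 94.9 CPM in control-labelled libraries. The groups were 2.78-fold apart (adjusted p = 1.93e-13). Sec22a, a relative without the SNARE motif, had 19.9, 20.4 and 24.2 CPM in VprBP-labelled libraries, against 25.7, 26.4 and 25.4 CPM in control-labelled libraries. Sec22c, another such relative (chr9:121680045-121705490, minus strand), had 18.3, 19.1 and 16.6 CPM in VprBP-labelled libraries, against 9.76, 9.79 and 9.91 CPM in control-labelled libraries. Sec22c rose by 0.87 (adjusted p = 2.15e-06) with no overlap. Sec22a fell by 0.26 (adjusted p = 0.0202), and this call was lost with total-count scaling (-0.15, adjusted p = 0.179) and without VprBP-labelled library 1 (adjusted p = 0.0907) or 2 (0.0824) or control-labelled library 2 (0.0527).

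Several of these families hold paralogs, and the ratio of a pair within a library does not depend on how libraries are scaled. Compared were 17 pairs, 16 of paralogs and 1 of distinct coat subunits, Copb1 with Copb2. Of the 17, 16 had log2 ratios that did not overlap between the labels, and of the 16 paralog pairs 15. The groups of single genes did not overlap either for 77.2% of tested genes, and no such share was computed over pairs of other genes, so the count says nothing particular to these pairs. Each of these 16 gave an exact two-sided permutation p of 0.1, the smallest that 3 against 3 libraries allow, with a Benjamini-Hochberg value of 0.106 over the 17 pairs, so no pair could pass a threshold of 0.05 by this test. In 14 of the 17 pairs, all of paralogs, the 95% intervals of the 2 genes' log2 differences did not overlap, and the exceptions were Sec24a with Sec24d, Sec31a with Sec31b and Copb1 with Copb2. In 7 pairs the 2 genes had log2 differences of opposite sign. In all 7 the second gene was the less abundant by count in control-labelled libraries. Per kilobase of merged exons this did not hold for Sec24b, at 8.79 CPM per kb beside 8.62 for Sec24a in control-labelled libraries. Of these second genes, Copz2, Copg2, Sec24b and Sec22c were called higher, and Stt3b, Sec16b and Sec31b were not called.

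The log2 ratio of Copz1 to Copz2 was 1.50, 1.77 and 1.51 in VprBP-labelled libraries, against 3.35, 3.22 and 3.22 in control-labelled libraries. That of Copg1 to Copg2 was 1.54, 1.37 and 1.38 in VprBP-labelled libraries, against 2.80, 2.90 and 3.11 in control-labelled libraries. Between the labels the log2 ratio differed by -1.67 for the Copz pair, -1.51 for the Copg pair, -1.29 for Stt3a to Stt3b, -1.27 for Sec24a to Sec24b and -1.10 for Sec22a to Sec22c. The second gene of the Sec24 pair made up 58.4% of the pair's counts in VprBP-labelled libraries and 36.5% in control-labelled libraries, and Sec22c made up 45.6% in VprBP-labelled libraries and 27.5% in control-labelled libraries. Pairs in which both genes fell also shifted, with log2 ratio differences of 0.96 for Tmed4 to Tmed9, -1.03 for Tmed3 to Tmed7 and 0.56 for Sar1a to Sar1b. Sec24a to Sec24d, by contrast, overlapped between the labels (exact two-sided permutation p = 0.2).

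**Figure D5:**
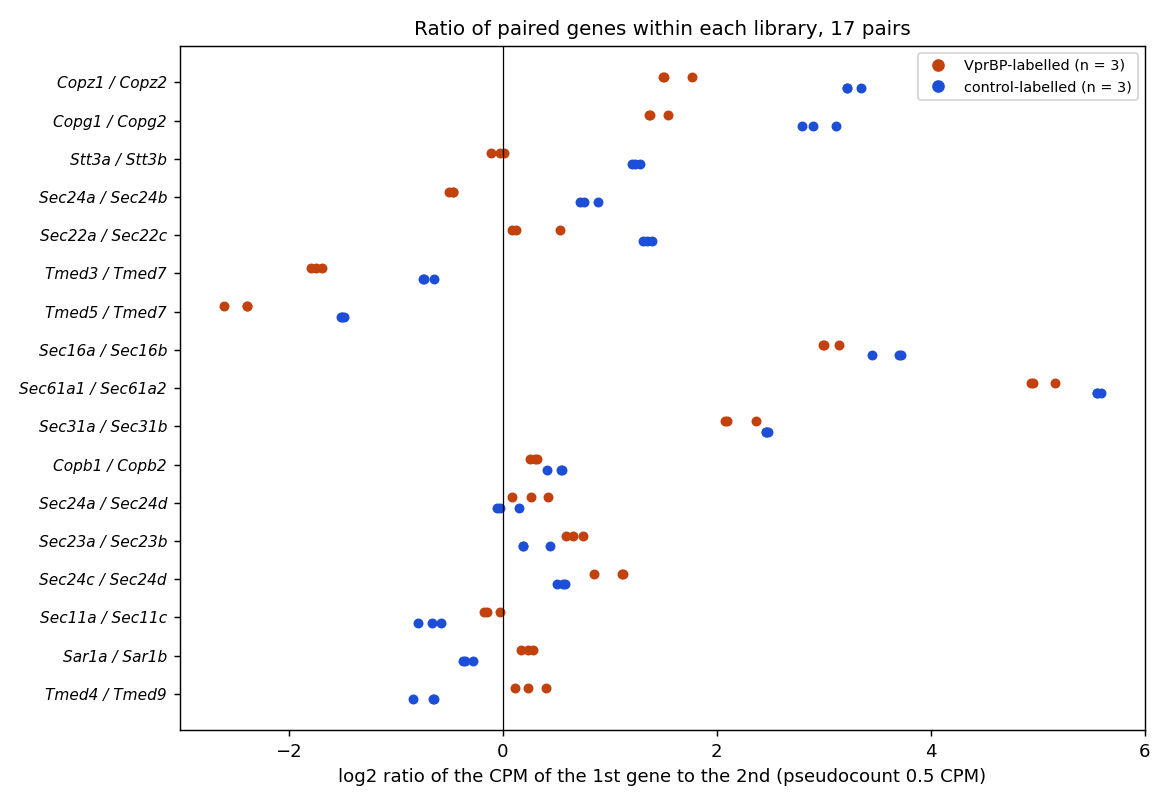
Log2 ratio of the first to the second gene of each of 17 gene pairs in each library (CPM with 0.5 added), VprBP-labelled and control-labelled libraries as separate points, 3 per label. The ratios of Copz1 to Copz2 lie between 1.50 and 1.77 in VprBP-labelled libraries and between 3.22 and 3.35 in control-labelled libraries, and those of Sec24a to Sec24d overlap.

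Reads divided among genes could affect single values. In 36 of the 62 genes, among them Srprb, Srpr, Sec61a1, Rpn1 and Stt3a, some library's count was more than 0.05 from a whole number. Of the other 26 genes, 19 fell, 3 rose and 4 were not called, with a median log2 difference of -0.66. Exons of 14 genes overlap those of another listed gene, on the same strand only for Sec11a (3.5% of its exon bases, with Nmb).

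Genes that act beside these but whose symbols fall outside the rule were described by lists. Of 11 further SRP, coatomer, COPII and oligosaccharyltransferase genes tested, 10 fell and Tusc3 rose, with a median log2 difference of -0.64. Magt1 fell by 1.38, and so did Krtcap2, a subunit of the Stt3a form. Of 20 other membrane insertion factors, 13 fell, 6 rose and 1 was not called (median -0.66). The ER membrane complex subunits Emc7 and Emc3 fell by 1.39 and 0.92, whereas Wrb, a receptor for tail-anchored proteins, rose by 1.13 and Tram2, a translocation-associated membrane protein, by 0.70. Of 19 cargo receptors and exit site proteins, 16 fell, 2 rose and 1 was not called (median -0.54). Kdelr3, which retrieves ER residents with a KDEL tail, had 37.5, 40.0 and 38.8 CPM in VprBP-labelled libraries, against 185, 191 and 185 CPM in control-labelled libraries (log2 difference -2.27, adjusted p = 9.39e-17). Surf4, an export receptor for soluble cargo, fell by 1.79, while Ergic1 and Bcap31 rose by 0.73 and 0.23. Of 30 genes of the Arf cycle and of ER-Golgi tethers and SNAREs, 23 fell, 2 rose and 5 were not called (median -0.51). The Golgi SNARE Stx5a fell by 1.63 and the stacking protein Gorasp2 by 1.46, while the small GTPase Arf3 rose by 1.10 and Scfd2 by 1.17.

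Neighbouring ER and Golgi genes were set beside the 62 genes. Of 20 ER chaperones and folding enzymes tested, 18 fell and 2 rose, with a median log2 difference of -1.67. Their sum was 15949, 16752 and 16773 CPM in VprBP-labelled libraries, against 59577, 58607 and 58109.5 CPM in control-labelled libraries, which is 28.1% of the level in control-labelled libraries. Hspa5, the main ER chaperone, had 1332, 1395 and 1441 CPM in VprBP-labelled libraries, against 18783, 18296 and 18116 CPM in control-labelled libraries (13.2-fold lower, edgeR adjusted p = 3.07e-21). Dnajb9, its J-domain partner, fell by 3.62, while the disulfide oxidase Ero1l and the exchange factor Sil1 rose by 0.36 and 0.37. The chaperone sum thus fell more than that of the 62 genes, and the difference between the lists was not tested.

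Of 13 tested regulators of ER stress transcription, 9 fell, 3 rose and 1 was not called (median -0.84). Xbp1, a factor that binds the UPRE, had 155, 140.3 and 157 CPM in VprBP-labelled libraries, against 552, 568 and 565 CPM in control-labelled libraries. It fell by 1.90 (edgeR adjusted p = 2.29e-16), and the counts do not tell its spliced from its unspliced form. Ddit3 and Atf4, transcription factors of the integrated stress response, fell by 2.93 and 1.75. Mbtps1, the Golgi protease that cleaves Atf6, rose by 1.52 and Creb3l3, a membrane-bound factor cleaved in the same way, by 1.23. Of 12 golgins and Golgi structure genes, 7 fell, 3 rose and 2 were not called (median -0.54). Tgoln1, a trans-Golgi membrane protein, fell by 1.13 and the golgin Golgb1 by 0.90, while Glg1 rose by 1.39 and Cux1, whose locus also encodes the golgin CASP, by 0.97.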

How the data were processed

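The authors deposited unscaled estimated counts per gene, made with Partek on the mouse build mm10 per the submitters' processing notes. No aligner, counter, strand setting or annotation is named (not given in the sources used here), so reads of overlapping genes on opposite strands cannot be told apart. Between 62.1% and 64.5% of values per library were whole within 0.001.

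Rounded counts were fitted with edgeR 4.0.16 under R 4.3.3 (quasi-likelihood F test, TMM scaling, filterByExpr, group as the only term), with Benjamini-Hochberg adjustment over 14641 genes and a threshold of 0.05. Levels are CPM with TMM factors. Log2 differences are VprBP-labelled minus control-labelled. Of 18908 gene IDs, 18501 matched GENCODE M21 on GRCm38, which gave exon lengths, overlaps and gene coordinates. A count of 0 allowed up to 0.137 to 0.178 CPM, taken as 3 counts, for counting error only; without molecular identifiers, reads cannot be taken as independent molecules. Pair ratios used CPM plus 0.5. Promoters came from RefSeq windows.

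Alternatives were DESeq2 size factors, total-count and upper quartile scaling, no filter, a mean of at least 1 CPM, DESeq2 1.42.0, limma-voom (limma 3.58.1), a replicate block, a pseudocount of 0.1 and each library left out. The genes, lists and pairs were chosen with earlier results of these data known. Library values were given for the 2 called genes of largest change and the most abundant by count of each class, for pairs of opposite sign or differing by over 1, and where needed for a direction. From the other lists, the 2 higher and 2 lower genes of smallest p were named, with Arcn1, Hspa5 and Xbp1.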

Additional observations from a re-analysis of the deposited data

How the results depend on the processing

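Over the 14 alternatives of scaling, filter, tool, replicate block and left-out library, between 49 and 53 of the 62 genes were called lower and between 6 and 8 higher. Of 868 values of single genes, 855 kept direction and call, and 55 genes did so under every alternative. Scaling by total count alone moved the all-gene median by 0.12 (log2), and the median of the 62 genes was then -0.64 in place of -0.76, with 8 called higher and 49 lower. With that scaling Dcaf1 differed by -0.12 (adjusted p = 0.137) and Sec31a by 0.00 (adjusted p = 0.984). Leaving out 1 library at a time moved Sec16b between -0.03 (without control-labelled library 1, adjusted p = 0.865) and 0.11, and Sec16b was called in none of these fits. The replicate block gave 6 genes higher and 52 lower, a median of -0.76, and 5395 higher and 5254 lower among all genes. Deviations of libraries with the same number had correlations of -0.032, 0.007 and -0.042. Those of libraries with different numbers lay between -0.047 and 0.077. With 3 libraries per label, these values cannot tell whether the numbers pair the libraries. A pseudocount of 0.1 CPM changed the direction of no pair ratio. The causes of these shifts were not tested. Differences smaller than about the interval of Sec16b (-0.23 to 0.31) were not resolved for genes near its level.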
